A study of Rattus norvegicus with 8 samples.

Results

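The transcripts described here encode the pore-forming subunits of the AMPA and NMDA classes of ionotropic glutamate receptor. The 10 genes Gria1, Gria2, Gria3, Gria4, Grin1, Grin2a, Grin2b, Grin2c, Grin2d and Grin3a were chosen by name, as every non-control spot of the array annotated with one of these symbols. The rule itself uses no measured value, and the genes were picked with earlier results of these data known. They are represented by 14 of the 41012 probes on the array and make up 10 of 26978 tested genes and unnamed probes. All 14 probes passed the filter on dim probes, which required 4 or more of the 8 arrays, in either group, to read a probe's Cy5 signal well above background.

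AMPA receptors are tetramers of Gria products and carry most fast excitatory current at central synapses. The Gria2 subunit, in its RNA-edited form, keeps calcium out of the channel. NMDA receptors need the obligatory Grin1 subunit, which binds glycine, together with Grin2 subunits, which bind glutamate, or Grin3 subunits. They admit calcium when glutamate is bound and the membrane is depolarised, and the Grin2 subunit sets how long the channel stays open. In the thalamus both classes receive input from ascending sensory fibres and from the cortex.

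RNA came from the medial thalamus of 8 male Sprague-Dawley rats weighing 277 g, all under urethane and each carrying a tracheal cuff that could be inflated. In 4 occlusion animals the cuff closed the airway for 2 to 4 breaths, opened for no fewer than 15 breaths, and went on in this way for 10 min, and the brain was taken out straight after. In 4 control animals the cuff was left uninflated and the brain was taken out 70 min after setup. The sources used here state neither the animals' age nor how long after setup the occluded brains were removed, so occlusion and time under anaesthesia cannot be told apart. Each animal's RNA was labelled with Cy5 and hybridised against a Cy3-labelled pool of all 8 animals, so a value is a log2 ratio of that animal to the pool, and 0 means the pool's level. Slide 1 held occlusion 1 and 2 with control 3 and 4, and slide 2 held occlusion 3 and 4 with control 1 and 2.

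The share of spots whose Cy5 signal stood well above background was 68.3% to 80.2% per array, and the median Cy5 signal over local background lay between 3.65 and 4.67. The number of arrays limits the precision. Control 3 stood apart from the other animals. Its median correlation with the other arrays over tested probes was -0.111, against 0.171 to 0.317 for the rest, and its mean over 13 tested cortical markers was 1.38, against -0.79 to -0.36 in the other 7 animals. Its mean over 11 tested thalamic relay markers was -1.90, against -0.41 to 0.22. The differences of the subunits are therefore given with and without control 3.

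No subunit transcript passed the test between occlusion and control animals. Of the 14 probes, 0 had an adjusted p under 0.05 (limma, Benjamini-Hochberg over 31670 tested probes), where 0% of all tested probes did, and the lowest adjusted p among members was 0.977. Without control 3 it was 0 of 14 members and 0.00316% of all tested probes. Before adjustment, 1 of 14 probes had a p under 0.05, that of Grin2d, where 3.06% of all tested probes met this mark (968 probes; 564 without occlusion 1 and 1688 without control 1). Without control 3 it was again Grin2d alone, on 2 control values, against 4.12% of all tested probes. Over the 10 genes the count was 0 without occlusion 1, occlusion 3 or control 1, and 3 (Grin1, Grin2b and Grin2d) without occlusion 4. Over all tested probes it was 784 without occlusion 3 and 1115 without occlusion 4. The occlusion and control values overlapped on all 14 probes, where groups that do not overlap made up 2.5% of tested probes. By sign alone, 3 genes were higher and 7 lower in the occlusion animals, with a median log2 difference of -0.14, against 0.0019 over all tested probes. That median depended on control 3, without which it was 0.01, with 5 genes higher and 5 lower. In bulk tissue, fewer cells that carry a transcript and less of it per cell cannot be told apart.

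**Figure D1:**
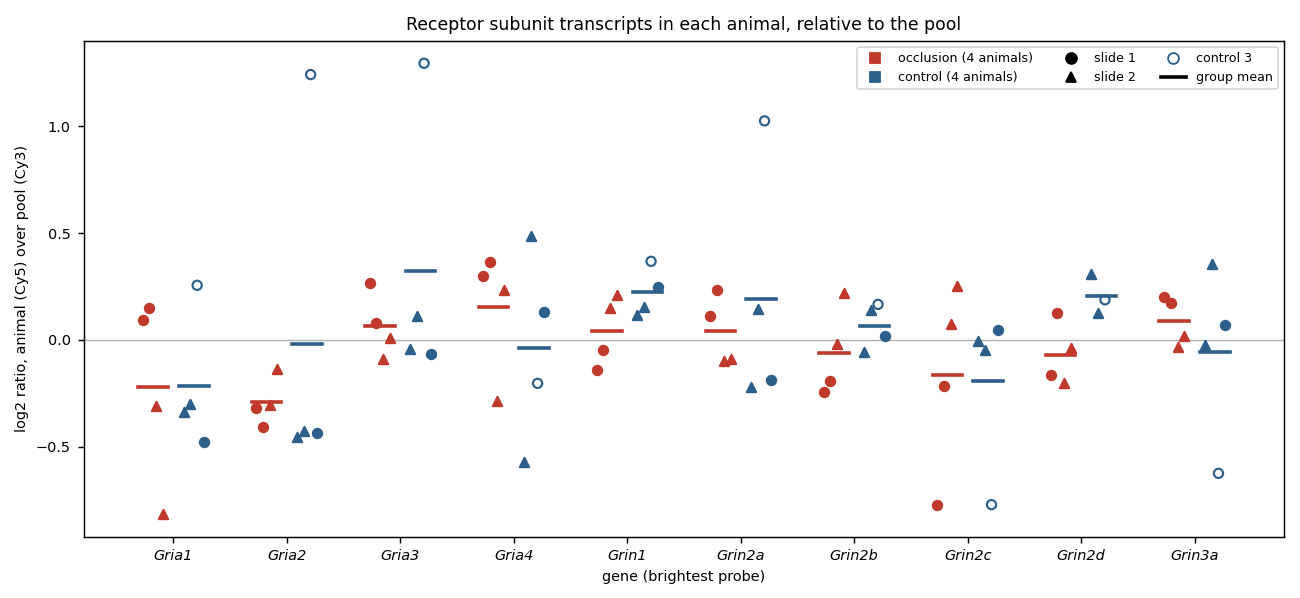
Log2 ratio to the pool (vertical axis) of the brightest probe of each of the 10 genes in every animal. Red marks are occlusion animals and blue marks are control animals, circles are slide 1 and triangles slide 2, the open circle is control 3, and bars are group means. Control 3 sits at 1.24 for Gria2, 1.29 for Gria3 and 1.02 for Grin2a, far above all other animals, and at -0.62 for Grin3a it is the lowest.

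Among the AMPA receptor genes, Gria1 encodes a subunit that is inserted into synapses during activity-dependent strengthening. Its probe, A_43_P15761, has 10 spots and no coordinates in the array annotation. It was 0.09, 0.15, -0.31 and -0.81 in occlusion 1, 2, 3 and 4, against -0.34, -0.30, 0.26 and -0.48 in control 1, 2, 3 and 4. The occlusion animals split by slide, with both animals of slide 1 above the pool and both of slide 2 below it, and they spanned more than the control animals did. The means were -0.22 ± 0.45 in occlusion and -0.22 ± 0.32 in control animals (SD, n = 4 each). The log2 difference, occlusion minus control, was -0.0050 with a standard error of 0.23 and a 95% interval of -0.53 to 0.52 (exact permutation p = 0.971, two-sided over all 70 assignments). Without control 3 it was 0.15 ± 0.21 (SE).

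Gria2, the subunit that governs calcium entry through AMPA receptors, was measured on 10 replicate spots of its brightest probe (A_44_P289630, chr2:172216995-172217054 of the rn3 build, minus strand). Its log2 ratios were -0.32, -0.41, -0.30 and -0.14 in occlusion 1 to 4, against -0.46, -0.43, 1.24 and -0.44 in control 1 to 4. The occlusion animals and controls 1, 2 and 4 were all below the pool, and control 3 alone was above it. The Cy5 signal itself was 10077 in control 3, against 2492 to 3359 in the other 7 animals, while the pool's Cy3 signal on the same spots lay between 1909 and 2144. Group means were -0.29 ± 0.11 in occlusion and -0.02 ± 0.84 in control animals (SD, n = 4 each). The difference was -0.27 (SE 0.35, 95% interval -1.07 to 0.53, exact permutation p = 1.0).

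Leaving out control 3 turned the sign of the Gria2 difference, which was then 0.15 (SE 0.08, limma unadjusted p = 0.0883, adjusted p = 0.932). Controls 1, 2 and 4 then had an SD of 0.014, and all 4 occlusion animals lay above all 3 controls. This was the only member probe on which the groups did not overlap without control 3, where 6.13% of all tested probes showed the same. Occlusion 2, at -0.41, and control 2, at -0.43, were the nearest animals of the groups. The standard error between spots was 0.079 in control 1, 0.041 in control 2 and 0.012 in control 4. In controls 1 and 2 it exceeded the SD of 0.014 between animals. The dimmer Gria2 probe, 242 bases away, was -0.04, -0.16, -0.32 and -0.04 in occlusion 1 to 4, against -0.27, -0.04, 1.35 and -0.30 in control 1 to 4. On that probe the groups overlapped with and without control 3, and the difference without it was 0.06 (SE 0.10).

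Gria3, the X-linked AMPA receptor subunit gene (probe A_44_P449764, chrX:3465270-3465329 of rn3, minus strand), was 0.26, 0.08, -0.09 and 0.01 in occlusion 1 to 4, against -0.04, 0.11, 1.29 and -0.07 in control 1 to 4. Again control 3 was far above every other animal, and the other 7 lay within 0.36 of each other. The difference was -0.26 (SE 0.28, 95% interval -0.90 to 0.38, exact permutation p = 0.714), and 0.06 (SE 0.10) without control 3.

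Gria4 encodes a subunit with rapid kinetics that is well represented in thalamic neurons. Its brighter probe (A_44_P323349, chr8:957385-957444 of rn3, minus strand) gave 0.30, 0.37, -0.28 and 0.23 in occlusion 1 to 4, against -0.57, 0.49, -0.20 and 0.13 in control 1 to 4. Both groups ran from below to above the pool, and control 3 lay inside the range of the other controls. The difference was 0.19 (SE 0.23, 95% interval -0.33 to 0.71, exact permutation p = 0.514) and 0.14 without control 3. Without control 1, the lowest animal, it was 0.016. The dimmer probe, 5572 bases away on the same strand, gave 0.19, -0.03, -0.17 and -0.07 in occlusion 1 to 4, against -0.51, -0.01, 0.87 and -0.24 in control 1 to 4. Here control 3 was the highest animal, the difference was -0.05 (SE 0.26), and it was 0.23 (SE 0.13) without control 3.

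Of the NMDA receptor genes, Grin1 encodes the subunit that every NMDA receptor contains. Its brightest probe, with 10 spots (A_44_P536333, chr3:3453883-3453942 of rn3, minus strand), was -0.14, -0.05, 0.15 and 0.21 in occlusion 1 to 4, against 0.12, 0.15, 0.37 and 0.25 in control 1 to 4. The 2 occlusion animals of slide 1 were below every control, and those of slide 2 lay among the controls. The means were 0.04 ± 0.16 in occlusion and 0.22 ± 0.11 in control animals (SD, n = 4 each). The difference of -0.18 had a standard error of 0.10 and a 95% interval of -0.40 to 0.04 (limma unadjusted p = 0.1, exact permutation p = 0.143), and it was -0.13 without control 3.

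Another Grin1 probe, drawn from the record of an alternatively spliced NMDAR1 form, was -0.38, -0.23, -0.06 and 0.05 in occlusion 1 to 4, against -0.0018, -0.12, -0.08 and 0.16 in control 1 to 4. Its coordinates lie 17963 bases from the first probe and span 1003 bases, where the other mapped probes span 60. Its difference was -0.15 (SE 0.11) with control 3 and -0.17 (SE 0.12) without it. Both probes of Grin1 were thus lower by sign in occlusion animals, and on both the intervals included 0.

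Grin2a encodes the subunit that comes to dominate forebrain NMDA receptors after birth. Its brighter probe, a single spot (A_44_P505902, chr10:6004472-6004531 of rn3, plus strand), was 0.11, 0.23, -0.10 and -0.09 in occlusion 1 to 4, against -0.22, 0.14, 1.02 and -0.19 in control 1 to 4. Its other probe, with 10 spots and 1258 bases away, was 0.08, 0.06, -0.03 and 0.04 in occlusion 1 to 4, against -0.13, 0.22, 0.92 and 0.18 in control 1 to 4. Control 3 was the highest animal on both. The differences were -0.15 (SE 0.25, exact permutation p = 0.857) and -0.26 (SE 0.19, exact permutation p = 0.314). Without control 3 the pair parted in sign, at 0.13 on the brighter and -0.05 on the 10-spot probe.

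Grin2b, which gives slowly closing channels and prevails early in development, was -0.24, -0.19, -0.02 and 0.22 in occlusion 1 to 4, against -0.06, 0.14, 0.17 and 0.02 in control 1 to 4 (A_44_P308696, 10 spots, chr4:172967545-172967604 of rn3, minus strand). The occlusion animals spread on both sides of the controls. The difference was -0.13 (SE 0.11, 95% interval -0.38 to 0.12, exact permutation p = 0.371), and -0.09 without control 3. This probe was dim, with a Cy5 signal between 181 and 312 over a local background of 54.7 to 58.0.

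Grin2c, best known from cerebellar granule cells and weakly blocked by magnesium, had a Cy5 signal of 14081 to 32538 (A_42_P738337, 10 spots, chr10:105337753-105337812 of rn3, minus strand). Its log2 ratio was -0.77, -0.22, 0.07 and 0.25 in occlusion 1 to 4, against -0.0046, -0.05, -0.77 and 0.05 in control 1 to 4. One animal of each group, occlusion 1 and control 3, was low by nearly the same amount, and the other 3 controls lay close to the pool. Occlusion 1 also had the lowest relay marker mean after control 3, at -0.41. All 11 tested relay markers were below the pool there, with Prkcd lowest at -0.98, Rora highest at -0.02, and Slc17a6 at -0.03. The difference was 0.03 (SE 0.25, 95% interval -0.54 to 0.59, exact permutation p = 0.886), and -0.16 (SE 0.21) without control 3.

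Grin2d, a subunit of the diencephalon and brainstem with very slow deactivation, had the smallest unadjusted p of the members. It was -0.17, 0.13, -0.20 and -0.04 in occlusion 1 to 4, against 0.31, 0.13 and 0.19 in control 1, 2 and 3, and the single spot (A_44_P425143, chr1:96387613-96387672 of rn3, minus strand) was an outlier in control 4 and left out. Occlusion 2 lay level with control 2, so the groups met. The difference was -0.28 (SE 0.10, 95% interval -0.51 to -0.05, limma unadjusted p = 0.0246, adjusted p = 0.977), and -0.29 without control 3. That second fit rested on controls 1 and 2 alone, both on slide 2.

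The pool's Cy3 signal on the Grin2d spot was 2008 on the array of occlusion 1, against 1121 to 1320 on the other arrays, and the Cy5 signal of occlusion 1 was 3384, the highest of the 7 animals measured. On Cy5 alone, quantile-normalised between arrays, the difference was -0.19 (limma unadjusted p = 0.235). Without occlusion 1 it was -0.24 (unadjusted p = 0.0612).

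Grin3a, whose product lowers the calcium permeability of NMDA receptors, was read by a probe from the record of an NR3A splice form (A_44_P132873, chr5:66412308-66412367 of rn3, minus strand). It was 0.20, 0.17, -0.03 and 0.02 in occlusion 1 to 4, against -0.02, 0.36, -0.62 and 0.07 in control 1 to 4. Control 3 was the lowest animal, the opposite of its place for Gria2 and Gria3. The difference was 0.14 (SE 0.18, 95% interval -0.27 to 0.56, exact permutation p = 0.686), and -0.04 (SE 0.11) without control 3. Its Cy5 signal lay between 146 and 286 on spots well above background on all 8 arrays.

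**Figure D2:**
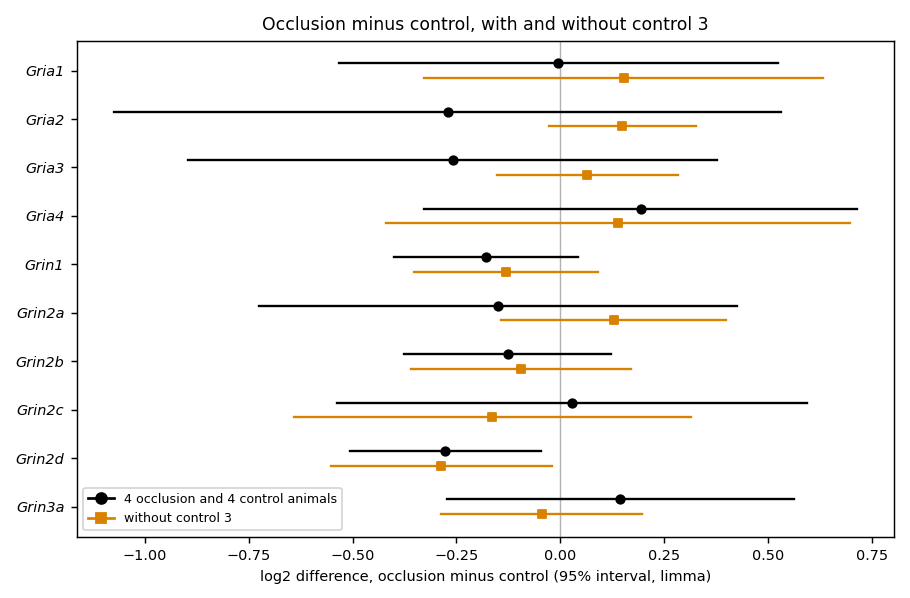
Log2 difference, occlusion minus control, of the brightest probe of each gene, with 95% intervals from limma. Black circles use all animals (for Grin2d, 3 controls). Orange squares leave out control 3 (for Grin2d, 2 controls remain, both on slide 2). The Gria2 interval narrows and its point moves across 0 without control 3, and the Grin2d interval is below 0 in both fits before adjustment.

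The same comparison within each slide rested on 2 animals a group. On slide 1, which held control 3, the log2 differences were 0.23 for Gria1, -0.77 for Gria2, -0.44 for Gria3 and 0.37 for Gria4, and on slide 2 they were -0.24 for Gria1, 0.22 for Gria2, -0.07 for Gria3 and 0.02 for Gria4. For the NMDA receptor genes slide 1 gave -0.40 for Grin1, -0.25 for Grin2a, -0.31 for Grin2b, -0.13 for Grin2c and 0.47 for Grin3a, and slide 2 gave 0.04 for Grin1, -0.05 for Grin2a, 0.06 for Grin2b, 0.19 for Grin2c and -0.18 for Grin3a. Grin2d was -0.34 on slide 2 and could not be fitted on slide 1, where 1 control value was left. The sign differed between slides for 6 of the 9 genes with both values, where 52.5% of the 30756 probes measured on all arrays did so.

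The pool was the same RNA on every array, so the spread of its channel describes variation between arrays. Over the 8 arrays the SD of log2 Cy5 was 0.57 for Gria2, 0.52 for Gria3, 0.42 for Grin2c, 0.41 for Gria4 and 0.39 for Grin2a, and the SD of log2 Cy3 was 0.026 for Gria2, 0.11 for Gria3, 0.055 for Grin2c, 0.067 for Gria4 and 0.057 for Grin2a. The Cy5 SD was above the Cy3 SD for 9 of the 10 genes, as it was for 80.4% of all tested probes. Grin2d had an SD of 0.22 in Cy5 and 0.24 in Cy3. Over all tested probes the median SD was 0.15 in Cy5 and 0.08 in Cy3. Grin1 was the most even member, with a Cy5 SD of 0.14. Without control 3 the Cy5 SD was 0.12 for Gria2 and 0.19 for Gria3, whereas it was 0.44 for Gria4, 0.38 for Grin2c and 0.31 for Gria1.

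**Figure D3:**
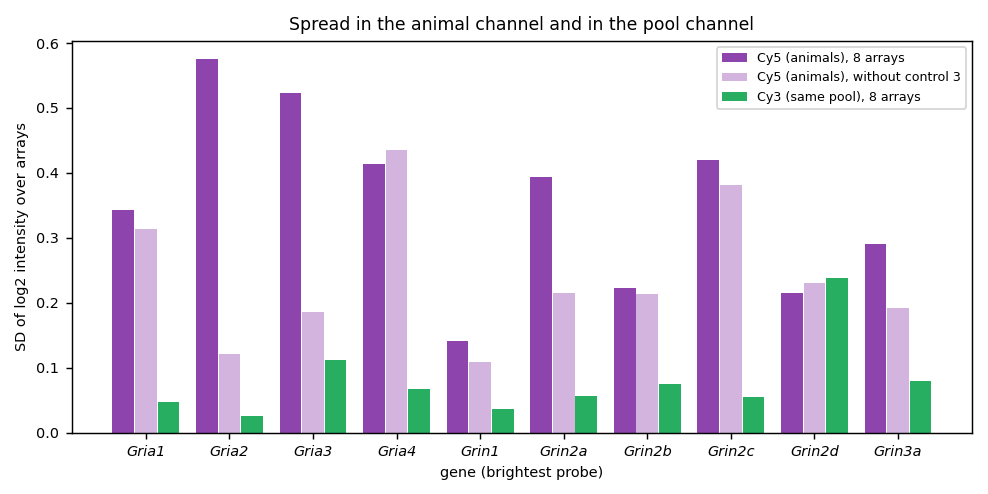
SD of log2 intensity over arrays (vertical axis, from 0) for the brightest probe of each gene. Dark purple bars are the animal channel on all 8 arrays, light purple bars the animal channel without control 3, and green bars the pool channel. The animal channel exceeds the pool channel for 9 of the 10 genes, as on 80.4% of all tested probes, and for Gria2 and Gria3 the light purple bar is far shorter than the dark one.

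Replicate spots show how finely a single array read a transcript. On the 6 probes with 10 spots, those of Gria1, Gria2, Grin1, Grin2b, Grin2c and the second Grin2a probe, the median SD between spots of the same array was 0.065 to 0.078. The highest SD on any array was 0.24, for Gria2 in control 1. The gap between control 3 and the nearest animal was 1.38 for Gria2. The spots of a probe share their RNA and array and are not replicates of a condition.

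A pair of probes was available for 4 genes. The Gria2 probes differed by at most 0.39 in any animal, and the Grin2a probes by at most 0.37, and in both genes the 2 probes placed control 3 highest. The Gria4 probes differed by 1.07 in control 3 and by 0.06 to 0.49 in the other 7 animals. The Grin1 probes differed by -0.45 in control 3 and by 0.09 to 0.27 in size elsewhere. Which transcript forms each probe reads was not tested.

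**Figure D4:**
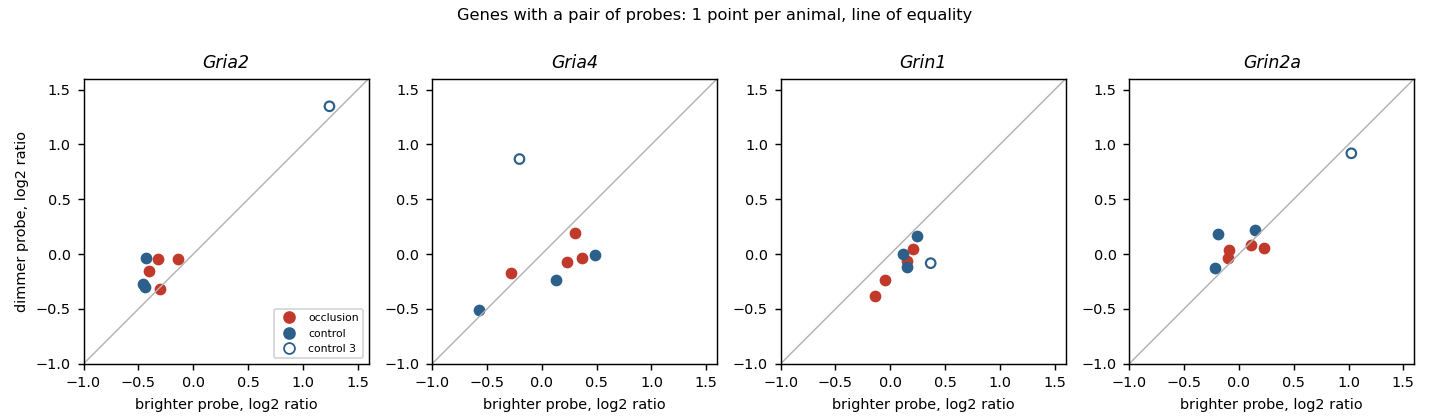
Log2 ratio of the dimmer probe against that of the brighter probe for the 4 genes with a pair of probes, with 1 point per animal (red occlusion, blue control, open blue circle control 3) and a grey line of equality. Control 3 lies near the line for Gria2 and Grin2a and 1.07 above it for Gria4.

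Control 3 lay at an extreme for part of the family. By brightest probe, it was the highest animal for 5 of the 9 genes measured on all arrays (Gria1, Gria2, Gria3, Grin1 and Grin2a). Over all probes measured on all arrays it was the highest on 24.3%. It was the lowest for 1 gene (Grin3a), against 24.4% of probes. It stood at least 1 log2 unit above every other animal for Gria2 and Gria3, as on 1.17% of probes. Relative to the mean of controls 1, 2 and 4, it was 3.21-fold higher for Gria2, 2.45-fold higher for Gria3 and 2.16-fold higher for Grin2a, and 1.70-fold lower for Grin2c and 1.69-fold lower for Grin3a. Grin1, on its brighter probe, lay 0.19 and Grin2b 0.13 log2 units above that mean. The other Grin1 probe differed from it by -0.10. Gria4 was 1.16-fold lower on its brighter probe and 2.17-fold higher on its dimmer probe. For Grin2d it was 1.02-fold lower than the mean of controls 1 and 2, since control 4 was not measured.

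The marker values of that animal stand beside these. The cortical markers Crym and Neurod2 were 2.55 and 2.60 in control 3, and the highest of the other 7 animals was -1.31 for Crym and -0.70 for Neurod2. The relay markers Slc17a6, which loads glutamate into synaptic vesicles, and Prkcd were -2.99 and -3.01 in control 3, and Slc17a6 lay between -0.03 and 0.26 in the others. Mean marker levels in control 3 were 1.13 for inhibitory neurons (9 of 11 markers tested), 0.97 for meninges and fibroblasts (8 of 8), -1.29 for habenula (6 of 8) and -0.03 for neurons in general (10 of 10). In the same order, the other 7 animals spanned -1.16 to 0.46, -0.55 to 0.10, -0.93 to 0.60 and -0.21 to 0.12. The general neuronal markers of control 3 went both ways, from -0.69 for Tubb3 to 0.92 for Rbfox3, and Syp was not measured there. Their mean near 0 therefore does not describe each marker. Occlusion 4 had both the 0.46 for inhibitory neurons and the -0.93 for habenula, and occlusion 1 was at 0.26 for inhibitory neurons. By group, the cortical mean spanned -0.70 to -0.36 in occlusion and -0.79 to 1.38 in control animals, and the relay mean spanned -0.41 to 0.15 in occlusion and -1.90 to 0.22 in control animals. Choroid plexus and ependymal markers (7 of 8 tested) averaged -0.54 to 0.66 in occlusion and -0.95 to -0.52 in control animals, and hypothalamic markers (9 of 10 tested) averaged -0.49 to 0.44 in occlusion and -1.11 to -0.28 in control animals. On both lists control 3 was the lowest animal, and the other 3 controls were also below the pool. Some occlusion animals were below it as well. On the choroid plexus list these were occlusion 1, 2 and 4, at -0.17, -0.32 and -0.54, and occlusion 3 alone was above. On the hypothalamic list they were occlusion 2 and 3, at -0.49 and -0.31. The genes of that list were uneven. Cartpt was 2.75 in occlusion 1, Oxt 2.36 in occlusion 4, and Pmch ran from -3.90 in control 3 to 1.26 in occlusion 1. Hcrt lay between 0.07 and 0.23 in all animals. The part of tissue composition in the subunit values was not tested.

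**Figure D5:**
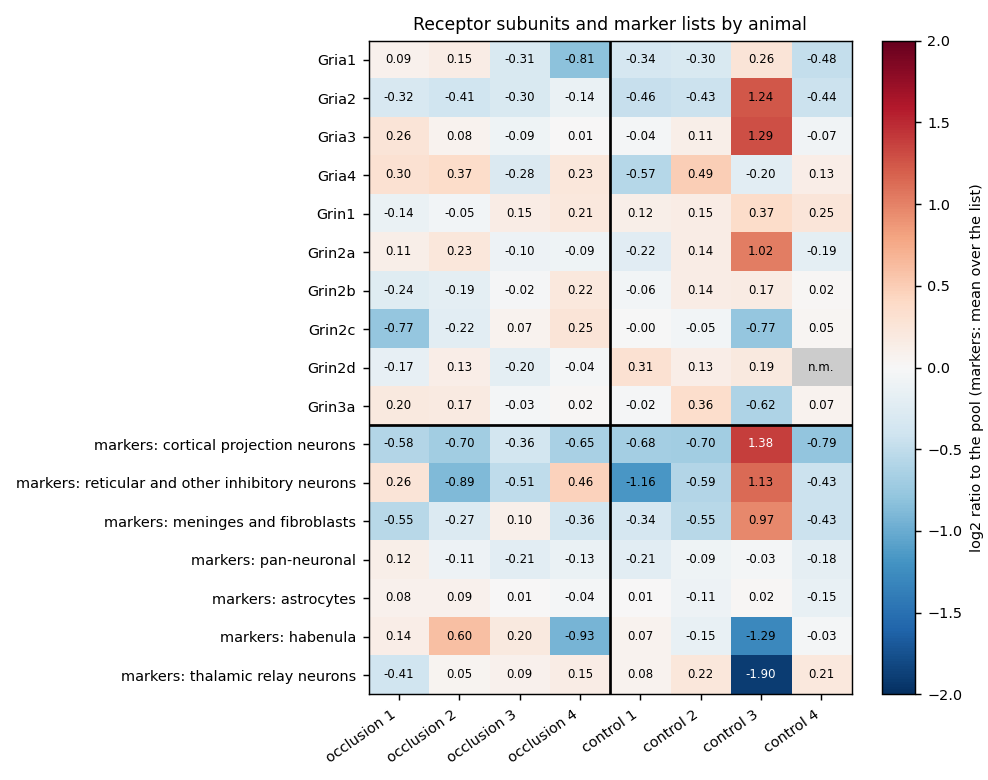
Log2 ratio to the pool in each animal (columns, occlusion left of control) for the 10 genes and, below the black line, for the mean of 7 marker lists. Red is above and blue below the pool, and n.m. marks the Grin2d spot left out in control 4. In the control 3 column Gria2, Gria3 and Grin2a are red with the cortical, inhibitory and meningeal markers, and the relay markers are at -1.90.

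Correlations between members over the 8 arrays are descriptions only, since all points share the pool and control 3. Gria2 and Gria3 had r = 0.95, Gria3 and Grin2a 0.96, and Gria2 and Grin2a 0.90. Without control 3 (7 arrays) these were 0.05, 0.73 and -0.04. The pair Grin1 and Grin2b held 0.86 with and 0.85 without control 3, and Gria1 and Grin2c held -0.87 with and -0.81 without it. Gria2 and Grin3a had -0.90, and -0.30 without control 3.

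Among 12325 genes with a symbol measured on all arrays, those whose log2 ratios followed a member most closely are named by Pearson's r over the 8 arrays. Picked as the closest of so many, they have a high r by selection. The arrays other than control 3 took part in that choice, so r without control 3 is no separate check. For Gria2 they were Ngef, Itpka and Tmem178a (each 0.99), for which r without control 3 was 0.75, 0.68 and 0.74. For Gria3 they were Prkca, Rbfox3 and Map2k1 (each 0.99; 0.87 to 0.90 without control 3), and for Grin2a they included Kif5a and Asb11 (0.98 and 0.97; 0.85 and 0.77 without). Those close to Gria1 included Olr1191 and Zfp638, Gria4 was followed by Cs, Cops6 and Pcyox1, and Grin1 by Ptprj, Efna3 and Ccsap, at 0.95 to 0.98 with and without control 3. Grin2b was followed by Pwwp2b, Dlx1 and Susd3 (0.94 to 0.97), Grin2c by Fahd2a, Zfp444 and Gpr12 (0.97 to 0.98), and Grin3a by Cfap210, Htt and Ascc3 (0.98; 0.88 to 0.91 without control 3). Grin2d has no such list because 1 value is missing.

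Other genes of the receptor pathway gave no call in the same fit. Of 8 other ionotropic glutamate receptor subunits, 0 passed in either direction and 0 had an unadjusted p under 0.05 (limma), with 5 higher and 3 lower by sign and a median difference of 0.04 with and without control 3. Grin3b, a glycine-binding NMDA receptor subunit, differed by 0.66 (SE 0.31, limma unadjusted p = 0.0621), and by 0.55 without control 3, with occlusion 1 highest at 0.89 and control 1 lowest at -1.09. Grik5, a kainate receptor subunit, differed by -0.17, and by -0.0034 without control 3. Of 15 auxiliary subunits of AMPA receptors 10 were tested and 0 passed, 0 of them with an unadjusted p under 0.05, with 2 higher and 8 lower and a median of -0.11 (-0.12 without control 3). Cacng4 and Cacng3 encode members of a family that brings AMPA receptors to the synapse and slows their closing. Cacng4 differed by 0.28 (limma unadjusted p = 0.0775), and by 0.30 without control 3. Cacng3 differed by -0.28 (limma unadjusted p = 0.103), and by -0.12 without control 3.

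Of 32 postsynaptic scaffold and trafficking genes, 0 passed, 11 were higher and 21 lower by sign, and the median was -0.09. Without control 3 there were 15 higher and 17 lower, with a median of -0.02. Lin7b, a PDZ scaffold protein, was the 1 gene of this list with an unadjusted p under 0.05 (limma). Without control 3 there were 4, differing by -0.24 for Lin7b, -0.16 for Lin7a, -0.18 for Dlgap1 and 0.34 for Neto1. The last 3 are named here after their values were seen. Over all tested probes 3.06% met this mark, and 4.12% without control 3. Lin7b was -0.52, -0.45, -0.25 and -0.16 in occlusion 1 to 4, against -0.05, -0.11, 0.50 and -0.15 in control 1 to 4. Those groups did not overlap, as on 2.5% of all tested probes, though occlusion 4 and control 4 all but met. The difference was -0.39 (SE 0.15, limma unadjusted p = 0.031, adjusted p = 0.977) and -0.24 without control 3. The Dlgap1 groups did not overlap either, at -0.60 to -0.58 in occlusion and -0.43 to 0.82 in control animals. Rab11a, a small GTPase of recycling endosomes, differed by 0.09, and by -0.0025 without control 3.

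Of 20 kinases, phosphatases and other enzymes that act on the receptors, 0 passed, 3 were higher and 17 lower, and the median was -0.10 (-0.09 without control 3). Camk2b, a subunit of the calcium and calmodulin dependent kinase of the postsynaptic density, was -0.57, -0.34, -0.69 and -0.20 in occlusion 1 to 4, against -0.22, -0.0049 and -0.18 in control 1, 3 and 4, with its control 2 spot left out. Its difference was -0.32 (SE 0.13, limma unadjusted p = 0.0408, adjusted p = 0.977), and -0.25 without control 3 (unadjusted p = 0.112). Camk2b was the 1 gene of this list with an unadjusted p under 0.05. Without control 3 there were 2 others, Camk2d, which differed by -0.18, and Akap5, by 0.55, named after their values were seen. Over all tested probes 3.06% met this mark, and 4.12% without control 3. Adarb1, which edits the Gria2 transcript and is also on the relay marker list, was -0.47, 0.03, 0.31 and 0.45 in occlusion 1 to 4, against 0.29, 0.28, -1.85 and 0.21 in control 1 to 4. It was lowest in control 3, where Gria2 was highest, and its difference was 0.34 (SE 0.47) with and -0.18 without that animal.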

How the data were processed

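Per the file headers, the authors extracted the arrays with Agilent Feature Extraction 9.5.1.1, and the deposited scanner files hold spot intensity on a linear scale in both channels. They also hold log10 ratios of Cy5 over Cy3, which the deposited value table repeats in rounded form (45018 of 45018 spots matched on every array, within 1% plus 0.0001; column medians 0).

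Intensities were corrected by normexp (offset 50) and normalised by loess within arrays, giving control and outlier spots no weight. After that, outlier spots were dropped and replicate spots averaged per probe. Probes needed a Cy5 signal well above background on 4 of 8 arrays and 2 values per group, which left 31670. Cy5 and Cy3 signals printed as such are mean signals before correction. The contrast, occlusion minus control, was fitted in limma 3.58.1 (R 4.3.3, two-sided, no covariates), with Benjamini-Hochberg adjustment and a threshold of 0.05. The brightest probe represents a gene. The fit was tested on simulated data.

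Members are named by the array annotation and other genes also through a rat RefSeq table. Members, pathway lists and markers were chosen with earlier results of these data known. Genes beyond the members were named by rule: the smallest unadjusted p in each direction of a list, the 3 closest by correlation (for Gria1 and Grin2a, 1 of them is not reported here), and the markers with the widest range. Coordinates are those of the array annotation (rn3), and Gria1 had none there. Labels describe separate animals, so the p-values measure the spread between these 8 rats. Alternatives covered background, normalisation, channels, filter, probes, weights, slide, replicate number and each animal left out.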

Additional observations from a re-analysis of the deposited data

Results flagged for a closer look

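In 27 checks of the 4 values of a group on a member probe, the highest or lowest animal lay far from its group (gap over range above Dixon's 95% critical value of 0.829) in 4, all of them in control 3. Chance flags about 1 in 20 groups. Over all tested probes 7.93% of such groups held an animal this far out, and in 6.26% of control groups it was control 3. These were the log2 ratios of 1.24 on the brighter Gria2 probe, 1.35 on the dimmer Gria2 probe, 1.29 for Gria3 and -0.77 for Grin2c. The pair of Gria2 probes reads the same gene and the same RNA. In control 3 the mean of the cortical markers was 1.38 and that of the thalamic relay markers -1.90, and their part in these values was not tested.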

How the results depend on the processing

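Across 21 alternatives, 0 member probes passed the adjusted threshold, and the smallest adjusted p of a member was 0.863. The count over all tested probes was 0 throughout except without control 3, where it was 1 (range over animals left out 0 to 1). At an unadjusted p under 0.05 that count was 968, against 325 with median centring. The members' median difference of -0.14 was -0.24 on the ratios of the scanner software, -0.25 on slide 1 alone, -0.018 on slide 2 alone and -0.04 with array weights, and it ranged from -0.19 to 0.0099 when 1 animal was left out, the upper end without control 3. Of 208 values of single members under alternatives, 23 had the opposite sign. Some of the 208 could not differ from the main value. The filters on dim probes and the use of 1 probe per gene leave a member's difference unchanged. So do the slide and replicate blocks for genes measured on all arrays, since the groups are balanced. Array weights, which gave control 3 a weight of 0.265, turned Gria1 to 0.12, Gria2 to 0.022, Grin2a to 0.019, Grin2c to -0.080 and Grin3a to -0.033. Median centring turned Gria1 to 0.030, and Cy5 alone turned Grin2c to -0.048. Slide 1 alone turned Gria1 to 0.23 and Grin2c to -0.13, and slide 2 alone turned Gria2 to 0.22, Grin1 to 0.043, Grin2b to 0.057 and Grin3a to -0.18. Leaving out 1 animal at a time gave -0.13 to 0.19 for Gria1, -0.42 to 0.15 for Gria2, -0.39 to 0.065 for Gria3, -0.29 to 0.13 for Grin2a, -0.16 to 0.23 for Grin2c and -0.045 to 0.28 for Grin3a. In all 6 the sign turned without control 3, as on 21.8% of all tested probes, and in Gria1 and Grin2c also without occlusion 3 or occlusion 4. Gria4 and Grin2d kept their sign under every alternative that gave a value. Grin2d had 19 such values, since it had none on slide 1 alone or when every array had to be well above background. Their values ranged from 0.0029 to 0.37 for Gria4 and from -0.34 to -0.19 for Grin2d. The Gria4 value was close to 0 with array weights, at 0.0029, and without control 1, at 0.016. The cause of these shifts was not tested.

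Occlusion and control animals share replicate numbers, but nothing in the labels pairs them. The correlations of same-numbered animals lay between -0.134 and 0.129, and those of animals with different numbers between -0.183 and 0.19. These are another measure than the correlations between arrays given above and cannot be set beside them. With the number as a replicate block the count was 0 over all probes and 0 over members, and the members' median was -0.14. That block cannot change the difference of a gene measured on all arrays, so the median is no check of it. Of 4 controls, 1 correlated best with its own number. The dim signals of Grin2b and Grin3a and the single spots of Gria3, Gria4, Grin2d and Grin3a limit how finely those transcripts were read.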
